A study of Mus musculus with 16 samples.

Results

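The genes of the respiratory chain and ATP synthase were followed in 16 mouse liver RNA-seq libraries from 4 diet groups. Members were chosen by name, as genes whose symbol starts with mt-Nd, mt-Co, mt-Cytb, mt-Atp, Nduf, Sdha, Sdhb, Sdhc, Sdhd, Uqcr, Atp5, Cox4, Cox5, Cox6, Cox7 or Cox8, with at least 1 TPM (a transcript's share of all transcripts, corrected for its length) in at least 4 libraries. Of 109 genes that matched by name, 104 were kept, among 22612 genes in the table and 11450 that pass the same filter. Of the 104, 13 are encoded in the mitochondrial genome and 91 in the nucleus. By complex, complex I held 7 mitochondrial and 44 nuclear members, complex II 8 nuclear, complex III 1 and 8, complex IV 3 and 15, and ATP synthase (complex V) 2 and 16, with 12 assembly factors counted among the nuclear members.

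The respiratory chain passes electrons from NADH (complex I) and succinate (complex II) through ubiquinone to complex III, cytochrome c and complex IV, and the proton gradient that this builds drives ATP synthase. Complexes I, III, IV and V are built from subunits of both genomes, while complex II is wholly nuclear. Mitochondrial genes are transcribed as long polycistronic RNAs that are cut at the tRNAs between them, whereas each nuclear gene has its own promoter. In liver the chain reoxidises the NADH and FADH2 released by fatty acid oxidation.

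All mice were male C57BL/6, bought at 7 weeks of age and started on the diets after 1 week of acclimation. The chow group ate chow with 11% of energy from fat, and the high-fat group a diet with 58% fat, both for 16 weeks. The high-fat/chow group switched between those diets every 2 weeks, and the high-fat/ketogenic group switched every 2 weeks between the high-fat diet and a ketogenic diet with 90.5% of energy from fat. Each group had 6 mice and gave 4 libraries, and livers were taken from all groups after an overnight fast. Which diet was eaten last before collection is not stated for the alternating groups. Nothing says that the 4 libraries of a group are 4 animals, so a p-value here measures spread among libraries, which may be technical. Hepatocyte markers were detected for 10 of 10 genes, and no striated muscle marker of 7 reached 1 TPM in 4 libraries.

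Libraries differed in ways that touch the members. Chow replicate 3 held the highest value of all 16 libraries for all 13 mitochondrial members and for 24 nuclear members, and high-fat replicate 2 held the lowest for 32 nuclear members. In chow replicates 2 and 3 and high-fat replicates 1 and 2, over 33% of TPM lay in 20 genes. The 20 genes were ranked over all genes, mitochondrial members included. Within their groups, these libraries also had the highest mitochondrial share of TPM. The slope of expression on transcript length, in log2 units per doubling of length, ran from -0.16 in high-fat replicate 1 to 0.14 in chow replicate 1. The members' nuclear transcripts are short, with a median length of 837.2 bases against 2684 for all genes that pass the filter. The summed level of the hepatocyte markers was 79350 to 86030 TPM in the high-fat/ketogenic libraries, below all chow (87100 to 98120) and high-fat/chow libraries (96950 to 106700), while the high-fat range was 78300 to 114500. The 10 markers did not move together. In the high-fat/ketogenic group against chow, 4 had positive and 6 negative log2 fold changes, with Apoa1 called higher and Ttr and Tat called lower. Apoa1 was also called higher against chow in the other fat-fed groups. Against the high-fat/chow group, 2 were positive and 8 negative, with 0 called. Sinusoidal endothelium markers summed to 104.8 to 152.5 TPM in the high-fat/ketogenic and 60.06 to 88.15 in the high-fat/chow libraries, with Clec4g and Oit3 called higher of 6 tested. All 9 Kupffer cell markers had positive log2 fold changes between these groups (median 0.78), none called, with sums of 166.4 to 578.8 and 187.5 to 251.2 TPM. The adipocyte marker sum was 13.1 to 42.3 TPM in the high-fat/ketogenic group and 0 to 4.41 elsewhere. Of its 7 genes only Cfd reached 1 TPM in 4 libraries, and Lep and Ucp1 were at 0. The part of these marker differences in the results below was not tested. In bulk tissue, fewer cells of a type and less RNA per cell cannot be told apart.

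Mitochondrial transcripts stood far above nuclear ones on the TPM scale, which is per length. The median of the members' mean levels was 8415 TPM for the mitochondrial genes, from mt-Nd3 at 1384 to mt-Co1 at 23560, and 185.6 TPM for the nuclear genes, from Cox6b2 at 1.07 to Cox6a1 at 1020. The ratio of the 2 medians within a library ran from 35.6 in high-fat/ketogenic replicate 4 to 70.8 in chow replicate 3. Among nuclear members, 66 averaged over 100 TPM and 7 under 10.

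The mitochondrial genes are packed so tightly that some share bases, shown here because reads from the shared stretch were divided by estimation. On GRCm38 (GENCODE vM21), mt-Atp8 (chrM:7766-7969), an ATP synthase subunit, and mt-Atp6 (chrM:7927-8607), its proton channel subunit, share 43 bases. The complex I genes mt-Nd4l (chrM:9877-10173) and mt-Nd4 (chrM:10167-11544) share 7 bases. Capitals mark the shared bases at the end of one gene and at the start of the next.
mt-Atp8 end: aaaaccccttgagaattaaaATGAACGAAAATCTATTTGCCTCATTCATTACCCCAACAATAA
mt-Atp6 start: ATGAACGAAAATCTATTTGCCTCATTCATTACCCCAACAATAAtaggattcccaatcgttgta
mt-Nd4l end: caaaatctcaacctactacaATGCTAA
mt-Nd4 start: ATGCTAAaaattattcttccctcacta
The complex I gene mt-Nd6 (chrM:13552-14070) lies on the other strand and shares 14 bases with mt-Nd5. The labels do not state whether counting used strand, so mt-Nd6 reads and antisense reads cannot be told apart.

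The share of TPM taken by the 13 mitochondrial members was lower on average in every fat-fed group than on chow, but the groups overlapped. It was 10.2%, 13.6%, 18.4% and 11.3% in the chow libraries, replicates 1 to 4, with a mean of 13.4% ± 3.63 (SD, n = 4). It was 11.1%, 11.1%, 8.73% and 8.61% on the high-fat diet (9.89% ± 1.41, SD, n = 4). It was 9.95% ± 0.506 (SD, n = 4) in the high-fat/chow group and 9.36% ± 0.666 (SD, n = 4) in the high-fat/ketogenic group. Chow replicate 3 set the top of the chow range, and without it the chow mean was 11.7%. The 91 nuclear members took 2.29% ± 0.23 on chow, 2.05% ± 0.232 on the high-fat diet, 2.25% ± 0.0876 in the high-fat/chow group and 2.09% ± 0.195 in the high-fat/ketogenic group (SD, n = 4 each). Mitochondrial TPM per nuclear TPM was 5.19, 5.56, 7.51 and 4.91 in the chow libraries and 4.58, 3.94, 4.68 and 4.56 in the high-fat/chow libraries. These 2 groups did not overlap, with means of 5.79 ± 1.18 and 4.44 ± 0.338 (SD, n = 4), while the high-fat (4.85 ± 0.844) and high-fat/ketogenic (4.49 ± 0.401) groups overlapped with chow.

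**Figure D1:**
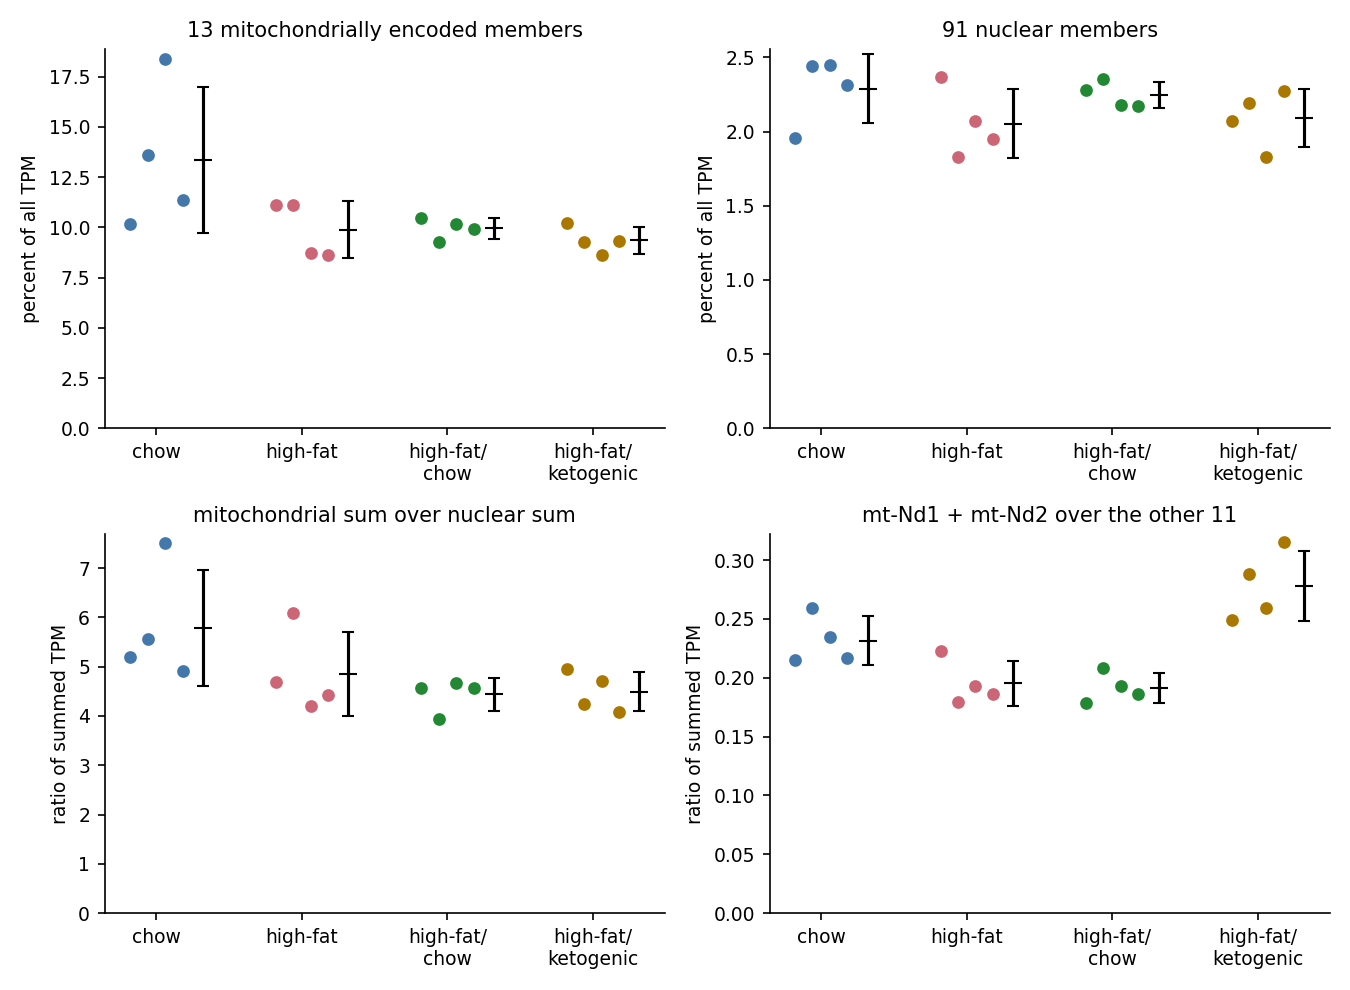
Each point is 1 library of the group on the horizontal axis, replicates 1 to 4 from left to right, and bars give the mean and SD. The vertical axes give the percent of all TPM in mitochondrial and in nuclear members, their ratio, and the ratio of mt-Nd1 plus mt-Nd2 to the other 11 mitochondrial members; in the last, the high-fat/ketogenic libraries (0.249 to 0.315) lie above the high-fat and high-fat/chow libraries.

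Fold changes below are differences of mean log2(TPM + 1), tested with limma across all genes, and a gene is called at an adjusted p under 0.05 (Benjamini-Hochberg over all genes tested). The 3 comparisons with chow share the chow libraries. Against chow, all 13 mitochondrial members had negative fold changes in each fat-fed group, and none was called. In the high-fat group no member of 103 tested was called, where 1.06% of all genes were, and 6 members had an unadjusted p under 0.05, where 11.6% of all genes did. These were 4 of 13 mitochondrial and 2 of 90 nuclear members, all lower. The median log2 fold change was -0.37 for mitochondrial, -0.14 for nuclear and -0.05 for all genes tested. In the high-fat/chow group 1 of 103 members was called, where 1.16% of all genes were, and 7 had an unadjusted p under 0.05, where 12.3% of all genes did. Those 7 were 5 of 13 mitochondrial and 2 of 90 nuclear members, all lower. The medians of this group were -0.35, 0.00 and -0.04. In the high-fat/ketogenic group 1 of 104 was called, where 5% of all genes were, and 24 had an unadjusted p under 0.05, where 22.2% of all genes did. Those 24 were 9 of 13 mitochondrial members, all lower, and 15 of 91 nuclear members, 6 higher and 9 lower. The medians of this group were -0.56, -0.11 and 0.15. Without chow replicate 3 the mitochondrial medians were -0.20, -0.19 and -0.40. In the high-fat/chow group 4 mitochondrial and 4 nuclear members lay below all chow libraries and 0 above, where 5.54% of all genes lay below and 2.94% above. In the high-fat/ketogenic group 4 mitochondrial and 3 nuclear members lay below and 4 nuclear members above, where 3.98% and 9.34% of all genes did.

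Between the fat-fed groups, on TPM without further scaling, the median differences of mitochondrial members were nearer to 0 than those against chow. In both high-fat/ketogenic comparisons they lay below the median of all genes tested. Median ratio scaling moved them further from 0 there. The high-fat/chow group against the high-fat group gave 0 of 103 members called, where 0.0459% of all genes were, and 2 at an unadjusted p under 0.05, where 4.15% of all genes were. Its median was 0.07 for mitochondrial and 0.14 for nuclear members, against 0.02 for all genes. The high-fat/ketogenic group against the high-fat group also gave 0 of 103, where 0.036% of all genes were called, and 2 at an unadjusted p under 0.05, where 10% of all genes were. Its medians were -0.13 and 0.04 against 0.21 for all genes. The nuclear median was -0.17 when libraries were scaled by their median ratio. That scaling divides all genes of a library by the same factor, and the median of all genes under it is not given. The mitochondrial median was -0.35 under that scaling, 0.024 with quantile normalization and 0.057 without the 4 libraries with over 33% of TPM in 20 genes. Those libraries held the highest mitochondrial shares of their groups, so the last value is not an independent check. The high-fat/ketogenic group against the high-fat/chow group gave 1 of 103 called, where 5.04% of all genes were, and 31 with an unadjusted p under 0.05, 10 of them higher and 21 lower, where 29% of all genes were. Those 31 were 6 of 13 mitochondrial members, 2 higher and 4 lower, and 25 of 90 nuclear members, 8 higher and 17 lower. The medians of this comparison were -0.15 and -0.13 against 0.19 for all genes tested. Under median ratio scaling the member medians were -0.34 and -0.32.

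**Figure D2:**
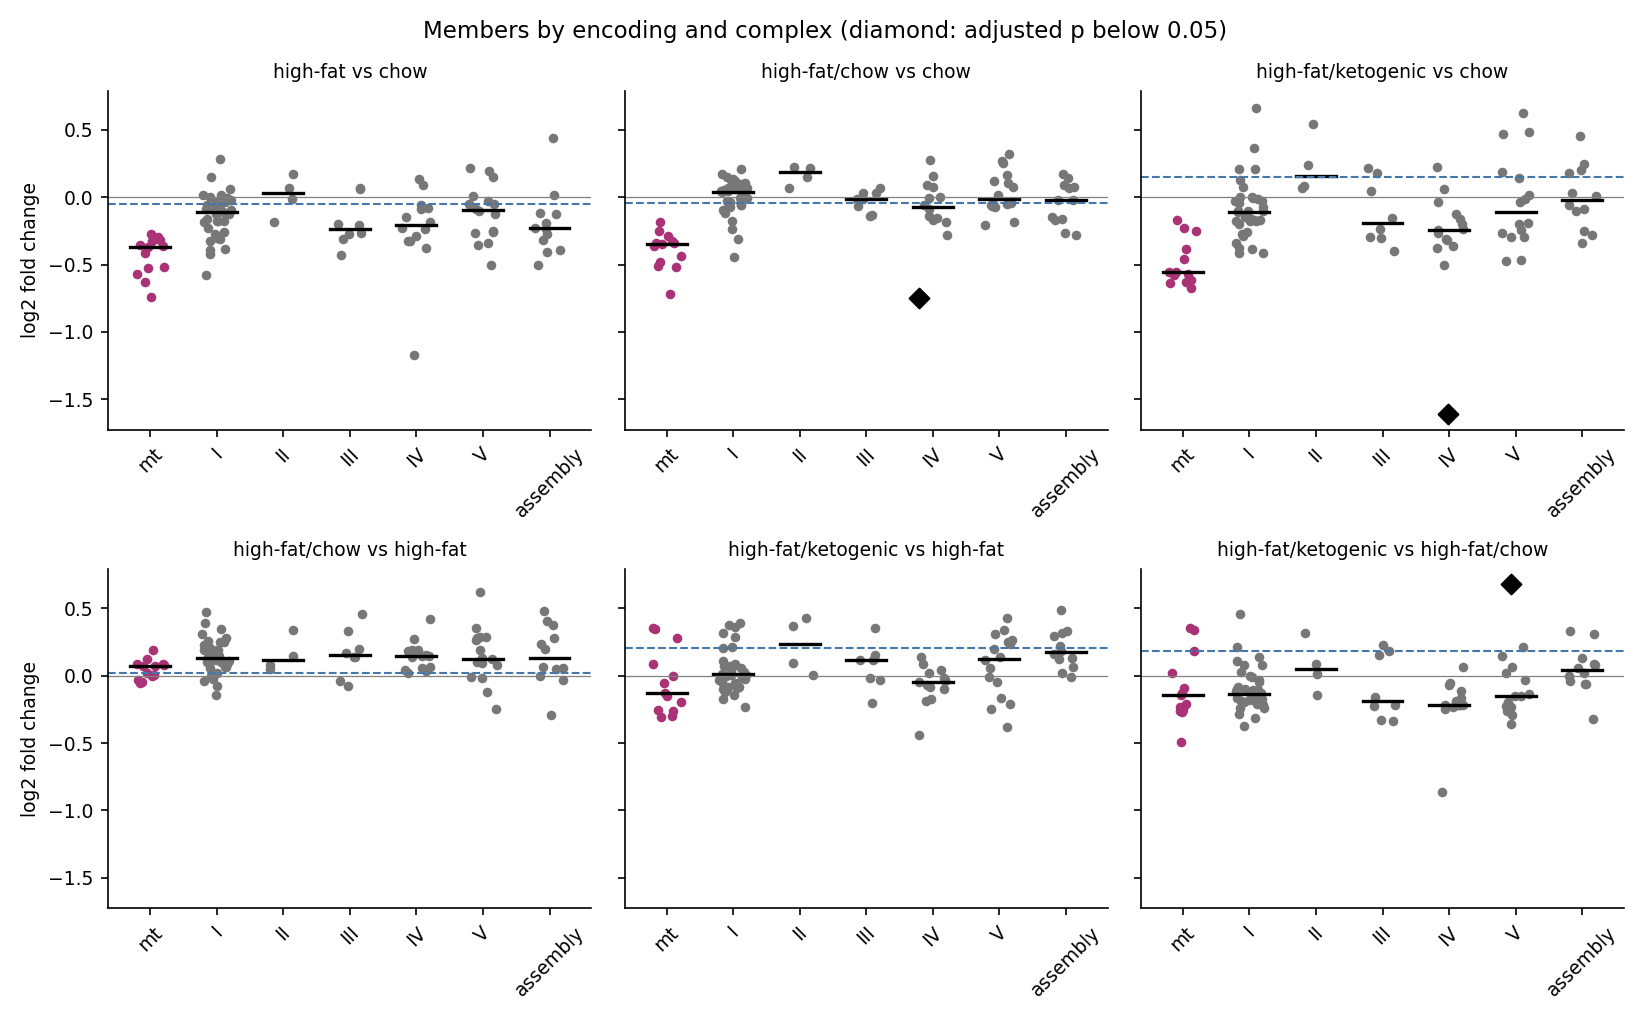
Each point is 1 member, placed by encoding, complex or assembly role on the horizontal axis and by log2 fold change on the vertical axis, 1 panel per comparison. Black lines are class medians, the dashed line is the median of all genes tested, and diamonds are called members, which are Cox7a1 (lower, 2 panels) and Atp5s (higher, 1 panel).

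The mitochondrial members did not move as 1 block. The genes mt-Nd1 and mt-Nd2 encode membrane subunits of complex I and lie next to each other (chrM:2751-3707 and chrM:3914-4951), first among the 13 in genome order. mt-Nd1 was at 8446, 14273, 16614 and 9757 TPM on chow, 9623, 5866, 7198 and 6188 on the high-fat diet, 7230, 6881, 7595 and 6987 in the high-fat/chow group, and 9027, 9662, 7731 and 9932 in the high-fat/ketogenic group. All high-fat/chow libraries lay below all chow libraries, and all high-fat/ketogenic libraries lay above all high-fat/chow libraries. The log2 differences were -0.72 (adjusted p = 0.127) against chow and 0.34 (adjusted p = 0.0856) between the alternating groups, neither called. mt-Nd2 was at 8563, 9086, 8852 and 8550 TPM in the high-fat/chow group and 11408, 11117, 10027 and 12352 in the high-fat/ketogenic group, without overlap, a difference of 0.35 (SE 0.0995, limma adjusted p = 0.0634).

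mt-Cytb, the mitochondrial subunit of complex III, went the other way between the alternating groups. It was at 13177, 12151, 12538 and 11743 TPM in the high-fat/chow group and 10953, 7621, 7783 and 9342 in the high-fat/ketogenic group. The groups did not overlap, and the difference of -0.49 (SE 0.13, limma adjusted p = 0.0552) was not called. Between these groups 2 mitochondrial members lay higher without overlap and 4 lower, where 14.7% and 2.06% of all genes tested did. Against chow, the complex I gene mt-Nd4l gave the smallest adjusted p of any mitochondrial member in the high-fat/ketogenic group, at -0.63 (limma adjusted p = 0.0688). It was at 5792, 5445, 8233 and 5167 TPM on chow and 4583, 4109, 3848 and 3196 in that group, without overlap. This was not particular to that group: mt-Nd4l differed from chow by -0.63 in the high-fat group and -0.51 in the high-fat/chow group, neither called. The high-fat (3274 to 4463 TPM) and high-fat/chow libraries (3347 to 4700 TPM) also lay below all chow libraries.

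The ratio of mt-Nd1 plus mt-Nd2 to the other 11 mitochondrial members was formed after these values were seen and is given without a test. It was 0.215, 0.260, 0.234 and 0.217 in the chow libraries, 0.223, 0.179, 0.193 and 0.186 in the high-fat libraries, 0.178, 0.208, 0.193 and 0.186 in the high-fat/chow libraries and 0.249, 0.288, 0.260 and 0.315 in the high-fat/ketogenic libraries. The high-fat/ketogenic mean of 0.278 ± 0.0296 was 1.42 times that of the high-fat group and 1.45 times that of the high-fat/chow group (SD, n = 4), with no overlap with either.

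**Figure D3:**
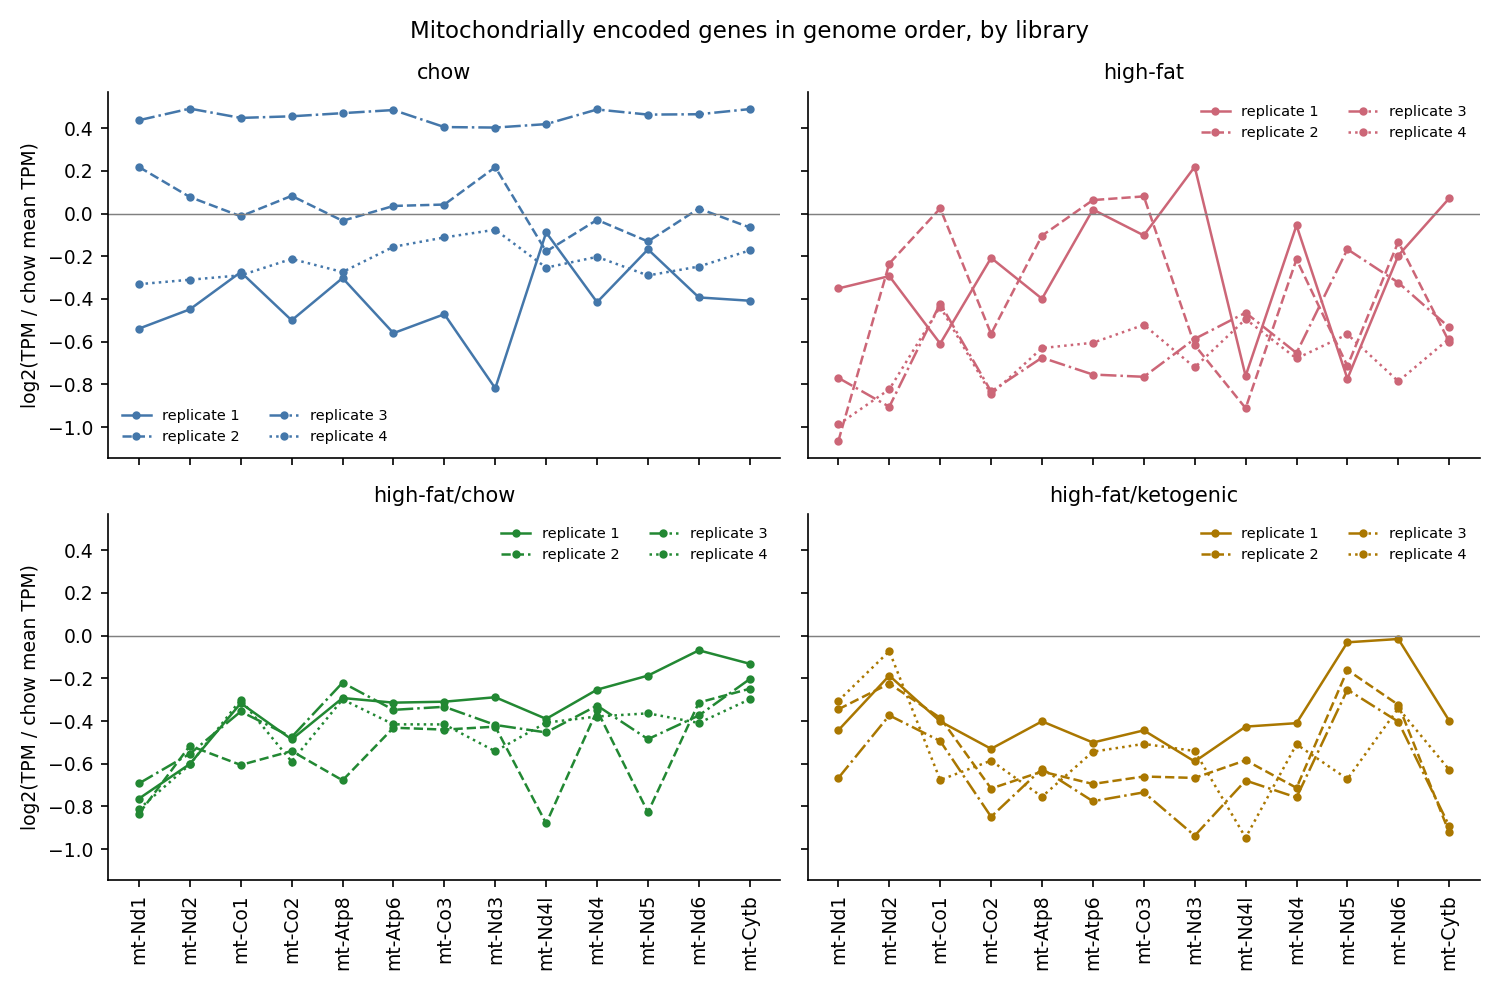
The 13 mitochondrial members stand in genome order on the horizontal axis, and the vertical axis gives log2 of TPM over the chow mean, with 1 line per library and 1 panel per group. Chow replicate 3 is the topmost line at every gene, and all high-fat/ketogenic and all high-fat/chow lines lie below 0 at mt-Cytb.

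Nuclear subunits of every complex were expressed in all groups, and 2 nuclear members were called in any comparison. For complex I the 3 most abundant subunits were Ndufb9 (mean 415 TPM), Ndufa6 (408) and Ndufa7 (263), all accessory subunits. For complex II they were the iron-sulfur subunit Sdhb (288), the flavoprotein Sdha (237) and the membrane anchor Sdhd (227). For complex III they were Uqcrq (548), Uqcrh (396) and Uqcr11 (392), and for complex IV Cox6a1 (1020), Cox4i1 (837) and Ndufa4 (741). For ATP synthase they were the catalytic beta subunit Atp5b (909), the c-ring subunit Atp5g3 (736) and the alpha subunit Atp5a1 (552). None of these was called. In the high-fat group against chow, the nuclear subunits of complexes I, III, IV and V had medians of -0.11, -0.24, -0.21 and -0.09 and complex II 0.03. Assembly factors had a median of -0.23.

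Among nuclear differences that were not called, those of Cox7a1 are given with that gene below. In the high-fat group against chow, Ndufa12, an accessory subunit of complex I, differed by -0.58 (-0.38 without high-fat replicate 2) and Ndufaf7, a complex I assembly factor, by 0.44. Ndufs1, a complex I subunit described below, differed by 0.29. In the high-fat/chow group against the high-fat group, Atp5k, the e subunit of ATP synthase, differed by 0.62 and Ndufaf6, an assembly factor, by 0.48. Ndufaf7 differed by -0.29 and Atp5s, described below, by -0.25. High-fat replicate 2 was at 31.4 TPM for Atp5k, where the other 15 libraries were at 104 to 216, and without it the Atp5k difference was 0.027. In the high-fat/ketogenic group against the high-fat group, Ndufaf8 differed by 0.48 and Atp5j2, the f subunit of ATP synthase, by -0.38. Without high-fat replicate 2 these differences were 0.12 and -0.23. Atp5s differed by 0.43 in the same comparison. Between the alternating groups Ndufs4, an accessory subunit of complex I, was lower by -0.38 in the high-fat/ketogenic group.

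Cox7a1, the heart and muscle form of a small complex IV subunit (chr7:30184144-30186030), was lower in both alternating groups than on chow. It was at 6.99, 8.06, 7.76 and 6.75 TPM on chow, 6.22, 0.499, 4.49 and 2.23 on the high-fat diet, 3.19, 4.15, 4.67 and 4.08 in the high-fat/chow group, and 3.05, 2.05, 0.24 and 2.67 in the high-fat/ketogenic group. Every fat-fed library lay below every chow library. The log2 difference from chow was -0.75 (SE 0.15, limma adjusted p = 0.0407) in the high-fat/chow group and -1.61 (SE 0.319, limma adjusted p = 0.0158) in the high-fat/ketogenic group. In the high-fat group it was -1.17 (SE 0.398, limma adjusted p = 0.254) and not called. The high-fat/ketogenic group differed by -0.87 from the high-fat/chow group (limma adjusted p = 0.118) and by -0.44 from the high-fat group, neither called. The call in the high-fat/chow group was lost in 13 of 21 alternatives. Among them were the fits without any 1 of its 4 libraries or without chow replicate 2, 3 or 4 (limma adjusted p up to 0.136). Others were the fit of all 16 libraries (limma adjusted p = 0.534), no filter on low values and median ratio scaling. The call in the high-fat/ketogenic group was lost in 4 of 21 alternatives. These were without its replicate 2 (limma adjusted p = 0.0509), without the libraries with over 33% of TPM in 20 genes (limma adjusted p = 0.139), with a pseudocount of 0.1 and with no filter on low values. The summed striated muscle markers were at most 1.37 TPM in any library, and Myh4 and Mb were at 0.

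Cox7a1's widely expressed counterpart Cox7a2 stood at 210 to 313 TPM with no called difference. Other muscle or testis forms were near 0: Cox6a2 averaged 0.0785 TPM, Cox4i2 0.156 and Cox8b 0.28, and Cox7b2 and Cox8c were at 0 in every library, all outside the filter. Their widely expressed counterparts Cox6a1, Cox4i1 and Cox8a averaged 1020, 837 and 687 TPM, and Cox6b1 averaged 399. Just inside it were Cox6b2, at 1 TPM in 6 libraries (mean 1.07 TPM), Ndufa4l2 in 15 (3.19 TPM) and Cox7a1 in 14 (4.2 TPM).

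**Figure D4:**
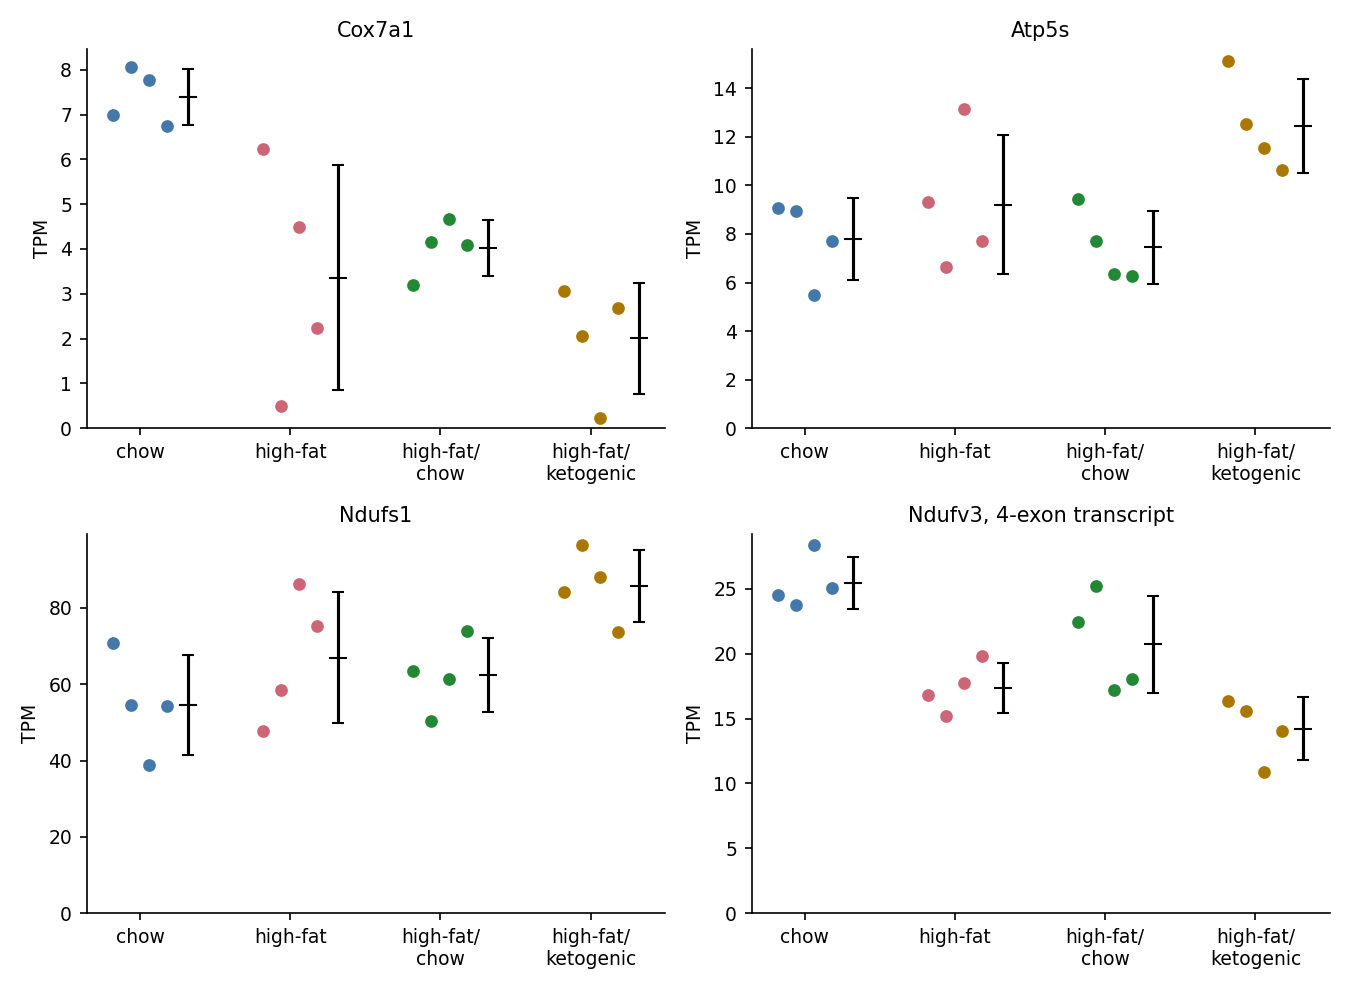
Each point is 1 library, in TPM on the vertical axis from 0, with mean and SD per diet group on the horizontal axis, for Cox7a1, Atp5s, Ndufs1 and the 4-exon transcript of Ndufv3. Cox7a1 lies at 6.75 to 8.06 on chow and below that in all 12 other libraries, and Atp5s at 10.6 to 15.1 in the high-fat/ketogenic group.

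The promoters of nuclear members were compared by sequence, with Cox7a1 shown as a called member, Cox7a2 as its widely expressed counterpart, and Cox6a1 and Atp5g2 as the 2 most abundant members with an NRF1 motif before the start. Sequences are the 250 bases before the start from RefSeq (GRCm38.p6). NRF1 is a factor known for driving respiratory chain genes, and capitals mark matches to its motif, a palindrome that is the first run of capitals in the Cox6a1 line, or to CCGGAAG, the core bound by GABPA, on either strand.
Cox7a1 promoter, chr7:30183921-30184170, plus strand: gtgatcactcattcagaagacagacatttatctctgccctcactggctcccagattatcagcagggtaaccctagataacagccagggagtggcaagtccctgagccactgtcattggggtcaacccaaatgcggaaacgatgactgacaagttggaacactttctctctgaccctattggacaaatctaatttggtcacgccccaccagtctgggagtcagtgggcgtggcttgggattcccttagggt
Cox7a2 promoter, chr9:79759854-79760103, minus strand: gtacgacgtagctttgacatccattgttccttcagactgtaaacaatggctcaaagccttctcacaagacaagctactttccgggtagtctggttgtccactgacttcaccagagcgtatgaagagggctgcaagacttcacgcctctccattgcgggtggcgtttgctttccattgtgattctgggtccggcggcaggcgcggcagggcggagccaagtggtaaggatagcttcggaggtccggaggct
Cox6a1 promoter, chr5:115348959-115349208, minus strand: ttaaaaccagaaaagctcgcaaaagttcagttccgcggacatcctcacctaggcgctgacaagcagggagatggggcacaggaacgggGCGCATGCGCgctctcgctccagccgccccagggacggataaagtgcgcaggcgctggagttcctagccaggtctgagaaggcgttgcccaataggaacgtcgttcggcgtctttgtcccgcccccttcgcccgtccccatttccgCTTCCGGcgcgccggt
Atp5g2 promoter, chr15:102671048-102671297, minus strand: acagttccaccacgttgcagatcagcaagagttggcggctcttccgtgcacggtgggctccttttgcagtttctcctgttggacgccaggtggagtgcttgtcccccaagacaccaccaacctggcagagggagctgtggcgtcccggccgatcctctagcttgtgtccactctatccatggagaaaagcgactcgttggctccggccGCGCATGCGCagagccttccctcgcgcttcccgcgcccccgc
Neither Cox7a1 nor Cox7a2 has either motif in this window. Of 91 nuclear members, 78 had a promoter in the table, scored over 250 bases before to 50 after the start. The NRF1 motif was found in 7 (8.97%), against 1.07% of all 27025 genes with a promoter and 2.32% of 9017 other genes that pass the TPM filter. CCGGAAG was found in 21 (26.9%, against 9.93% and 20.6%), and AAGATGGC, a YY1 motif, in 11 (14.1%, against 3.19% and 5.33%). The last 2 motifs can share the letters AAG, and a match is a description of the sequence only.

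Atp5s, which encodes coupling factor B, a protein associated with ATP synthase, was higher in the high-fat/ketogenic group than in the high-fat/chow group. It was at 15.1, 12.5, 11.5 and 10.6 TPM there and at 9.46, 7.7, 6.35 and 6.29 in the high-fat/chow group, without overlap. The difference was 0.68 (SE 0.15, limma adjusted p = 0.0318). Chow libraries were at 9.08, 8.95, 5.47 and 7.7 TPM, also without overlap, a difference of 0.62 (limma adjusted p = 0.08), while the high-fat libraries (6.65 to 13.2) overlapped. The call was lost in 10 of 20 alternatives. Among them were median ratio scaling (a difference of 0.50), quantile normalization, no filter on low values and the fit of all 16 libraries (limma adjusted p = 0.135). It was also lost without replicate 1, 2 or 3 of the high-fat/ketogenic group or 2, 3 or 4 of the high-fat/chow group (limma adjusted p up to 0.0935). Reads of Atp5s were divided among 5 transcripts by estimation.

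Ndufs1, the largest subunit of complex I, was at 84.2, 96.5, 88.2 and 73.7 TPM in the high-fat/ketogenic group and at 70.8, 54.7, 38.7 and 54.3 on chow. The groups did not overlap, and the difference of 0.66 (SE 0.178, limma adjusted p = 0.0567) was not called. Against the high-fat/chow group it was 0.46 (limma adjusted p = 0.059), with overlap.

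Between the alternating groups, nuclear members differed by transcript length. Of 56 members shorter than 1000 bases, 5 had a positive log2 fold change, and their median was -0.19, while 21 of 34 longer members did, with a median of 0.07. All genes tested gave medians of -0.0039 for 852 shorter and 0.20 for 10150 longer genes, of which 423 and 8329 had a positive log2 fold change. Among short members Uqcr11, a complex III subunit, differed by -0.33 and Atp5k by -0.36, and among long ones Sdha by 0.32 and Atp5b by 0.22, none called. With the trend of each library on length removed, the medians of the members were -0.17 and -0.07, and those of all genes tested were -0.031 and -0.0042. The limit of 1000 bases and the 4 genes named here were chosen after the values were seen.

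**Figure D5:**
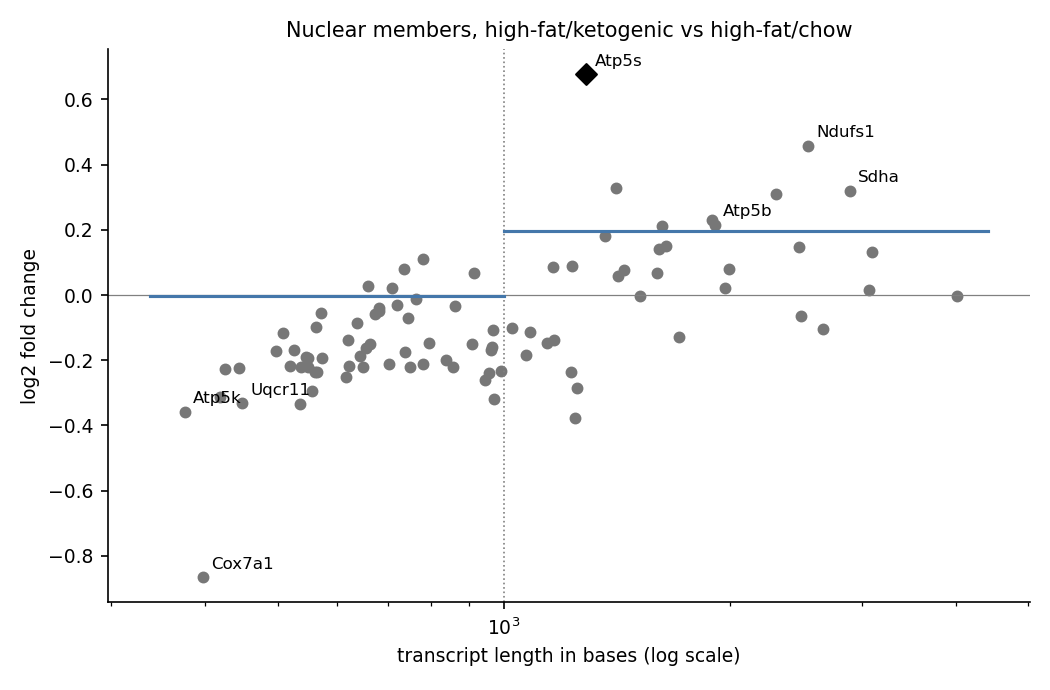
Each point is 1 nuclear member, with transcript length in bases on a log scale on the horizontal axis and log2 fold change of the high-fat/ketogenic against the high-fat/chow group on the vertical axis. Blue lines are the medians of all genes tested on either side of 1000 bases (dotted), and most short members lie below the line of their side; the diamond is Atp5s, the 1 called member.

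Ndufv3, an accessory subunit of complex I, is made as a short and a long form, and the long transcript was examined after its values were seen, without a test. This 4-exon transcript of 1537 bases (chr17:31520158-31531326) was at 24.6, 23.8, 28.3 and 25.0 TPM on chow, 16.8, 15.2, 17.7 and 19.8 on the high-fat diet, 22.4, 25.2, 17.2 and 18.1 in the high-fat/chow group, and 16.3, 15.6, 10.9 and 14.1 in the high-fat/ketogenic group. All chow libraries lay above all high-fat and all high-fat/ketogenic libraries. The 3-exon transcript of 485 bases averaged 109 TPM, and the split between them is an estimate.

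Genes that serve the chain but lie outside the name rule were read from separate lists. Hsd17b10, a subunit of mitochondrial RNase P that cuts tRNAs from the long transcripts and also an oxidation enzyme, rose against chow in each fat-fed group. It averaged 189 ± 14.6 TPM on chow, 375 ± 43.6 on the high-fat diet (0.98, adjusted p = 0.0109), 320 ± 13.1 in the high-fat/chow group (0.76, adjusted p = 0.00881) and 397 ± 49.6 in the high-fat/ketogenic group (1.06, adjusted p = 0.00136; SD, n = 4, limma). Mterf2, of the mitochondrial transcription termination factor family, rose from 1.27 ± 0.312 TPM on chow to 5.49 ± 2.64, 3.23 ± 0.70 and 6.56 ± 2.08 (SD, n = 4), with limma adjusted p of 0.0324, 0.0376 and 0.00181. The Mterf2 call was lost in 9 of 19 alternatives in the high-fat group and 10 of 20 in the high-fat/chow group (adjusted p up to 0.112 and 0.136), among them each fit without high-fat replicate 1 or 2, high-fat/chow replicate 1, 2 or 3 or chow replicate 2, 3 or 4, and for the high-fat group also chow replicate 1. The Hsd17b10 call in the high-fat group was lost in 3 of 21 alternatives, among them without chow replicate 4 (adjusted p = 0.0543). Sco2, a copper chaperone of complex IV, fell from 51.3 ± 9.21 TPM on chow to 27.7 ± 5.52 in the high-fat/chow group (limma adjusted p = 0.0472) and 25.5 ± 6.87 in the high-fat/ketogenic group (limma adjusted p = 0.0156; SD, n = 4). The Sco2 call in the high-fat/chow group was lost in 14 of 21 alternatives (adjusted p up to 0.2002), among them without any 1 of its libraries or chow replicate 2, 3 or 4. In the high-fat/ketogenic group it was lost in 4 of 21 (adjusted p up to 0.133), among them without its replicate 2 or 3 or chow replicate 2. Also called against chow in the high-fat/ketogenic group, all higher, were Gfm1 (1.00), Coq4 (0.88), Atpaf1 (0.88) and Ucp2 (1.16), where 5% of all genes were called. Those 4 calls were lost in 9, 7, 2 and 1 of 21 alternatives. By list, that group had called 3 of 32 genes of mitochondrial DNA expression and upkeep, 1 of 24 electron carriers and 1 of 11 carriers. Of 38 assembly factors, 1 was called higher and 1 lower. Called were 0 of 13 biogenesis regulators, 18 TCA cycle genes and 35 mitochondrial ribosome genes. In the high-fat and high-fat/chow groups 2 of the 32 were called, where 1.06% and 1.16% of all genes were.

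Between the high-fat/ketogenic and high-fat/chow groups, the genes called in these lists were all higher, where 4.31% of all genes tested were called higher. They were 5 of 32 genes of mitochondrial DNA expression and upkeep (among them Polg, the mitochondrial DNA polymerase, 0.57), 4 of 18 of the TCA cycle (Suclg1, a succinate-CoA ligase subunit, 0.43), 3 of 24 electron carriers (Etfdh, which passes electrons from fatty acid oxidation to ubiquinone, 0.73), 1 of 38 assembly factors, 1 of 35 mitochondrial ribosome genes and 1 of 11 carriers. The calls of Polg, Suclg1 and Etfdh were lost in 8, 7 and 7 of 20 alternatives (adjusted p up to 0.251, 0.211 and 0.187), among them median ratio scaling and the fit of all 16 libraries. Leaving out 1 library ended them without high-fat/ketogenic replicate 3 or high-fat/chow replicate 2 or 3 (Polg), high-fat/ketogenic replicate 2 or high-fat/chow replicate 2 or 3 (Suclg1) and high-fat/ketogenic replicate 2 or 3 (Etfdh). The carrier was the uncoupling protein family member Ucp2 (1.1, limma adjusted p = 0.00347). Medians of these lists were 0.25, 0.28, 0.23, 0.13, 0.18 and 0.14, beside 0.19 for all genes.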

How the data were processed

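Liver RNA was sequenced in 16 NEBNext Ultra libraries as 150-base paired reads, per the labels' protocols. Per the submitters' processing notes, HISAT2 (mm10), RSEM 1.1.17 and edgeR 3.14.0 were used, and the design text names FPKM and Ensembl release 96. The deposited gene and transcript values are TPM, since every column sums to 1000000, so the test planned for FPKM was applied to TPM. TPM keeps no depth, so depth is unknown and no counting interval is given, and a gene with a larger share lowers all others. The authors' counting was not stated as stranded.

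Values were analysed as log2(TPM + 1) for genes with at least 1 TPM in 4 of the 8 libraries, with limma 3.58.1 (R 4.3.3, trend, no covariate) and Benjamini-Hochberg adjustment over all genes. The fit was tested on simulated data. Members, gene lists and tests were chosen with earlier results of these data known. Named genes were taken from the 13 mitochondrial members, the called members, the 3 most abundant subunits per complex and the tissue isoforms. Also named were the 2 largest rises and falls of nuclear members in each of 4 comparisons (high-fat against chow, and those among the fat-fed groups). Of the pathway lists, the genes called against chow are named, and examples of those called between the alternating groups. Tables were read with pandas 2.3.3 in Python 3.11.15. Promoters were matched through GENCODE vM21 gene identifiers.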

Additional observations from a re-analysis of the deposited data

Results flagged for a closer look

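Of 176 sets of 4 libraries examined, 10 held 1 library far from the other 3 (its gap to the nearest, as a share of the range, passed Dixon's 95% limit), where chance gives about 1 in 20. Mitochondrial per nuclear TPM in high-fat/chow replicate 2 was 3.94, and the other 3 libraries were at 4.56 to 4.68. Its mt-Nd4l was 3347 TPM, and the others 4497 to 4700, and its Ndufaf6 was 22.05 TPM, with the others at 17.2 to 18. High-fat replicate 1 stood at 15170 TPM for mt-Cytb (others 9518 to 9977) and 2046 for mt-Nd3 (others 1067 to 1170). Chow replicate 3 was at 5424 TPM for mt-Nd5 (others 3218 to 3593), 22.29 for Ndufaf1 (others 26 to 26.72), 140 for the TCA cycle gene Suclg1 (others 207.6 to 214.7) and 210.5 for Hsd17b10 (others 179.2 to 183.6). Chow replicate 1 was at 779.7 TPM for Cox4i1 (others 971.3 to 993.8).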

How the results depend on the processing

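Members called changed with the settings more than fold changes did. High-fat against chow gave 1 member in the fit of all 16 libraries. High-fat/ketogenic against high-fat/chow gave 0 with no filter, 4 with a filter of 5 TPM, 0 with quantile normalization, 3 with the length trend removed, 0 in the 16-library fit and 3 with robust empirical Bayes. Over all genes, the filter of 5 TPM called 661 of 7774 and robust empirical Bayes 597 of 11002. Leaving out 1 library gave 0 to 14 members, where 162 to 2513 of all genes were called. Medians of this comparison under median ratio scaling were -0.34 (mitochondrial) and -0.32 (nuclear). High-fat/chow against chow gave 0 with no filter, with median ratio scaling and in the 16-library fit. It also gave 0 without the 4 libraries with over 33% of TPM in 20 genes, where the mitochondrial median was -0.084. That alternative was added after the data were seen. It leaves out the chow and high-fat libraries with the highest mitochondrial shares, so it moves the mitochondrial medians by selection. Leaving out 1 library gave 0 to 4 members in this comparison, where 32 to 242 of all genes were called. High-fat/ketogenic against chow gave 0 with a pseudocount of 0.1, 0 with no filter, 3 with median ratio scaling, 2 with the highest nuclear genes aside, 6 with quantile normalization, 4 with the length trend removed, 4 in the 16-library fit and 0 without the 4 libraries, where the mitochondrial median was -0.27; leaving out 1 library gave 0 to 20. Under median ratio scaling the called member between the alternating groups was mt-Cytb, not Atp5s.

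The mt-Cytb difference between high-fat/chow and chow was 0.070 without the 4 libraries, and the mt-Nd2 difference between high-fat/ketogenic and chow was 0.0070 with quantile normalization, -0.30 to 0.013 when 1 library was left out (0.013 without chow replicate 3) and 0.16 without the 4 libraries, against -0.18 and -0.17. The cause was not tested. Between the alternating groups, 14 members were called without high-fat/ketogenic replicate 4, where 2513 of all 10917 genes tested were. Without high-fat/ketogenic replicate 2 or high-fat/chow replicate 2 or 3, 0 members were called, where 162, 167 and 216 of all genes were. Against chow, 20 high-fat/ketogenic members were called without chow replicate 1, where 1620 of all 10943 genes tested were. In the high-fat/chow group 4 members were called without it, where 242 of all 10754 genes were. Without high-fat/ketogenic replicate 2, 0 members of that group were called against chow, where 181 of all genes were. Replicate numbers showed no clear pairing of the samples. Correlations of deviations were -0.58 to 0.386 (median -0.0016) over 24 same-numbered pairs. They were -0.515 to 0.513 (median -0.014) over 72 different-numbered pairs. A shared batch was not tested. With the replicate block, high-fat/chow against chow gave 0 members, and all-gene calls went from 116 to 43 (high-fat against chow), from 554 to 181 (between the alternating groups) and from 5 to 12 (high-fat/chow against high-fat). Over all genes, calls in high-fat against chow went from 116 to 60 with no filter, 244 with the length trend removed, 380 in the 16-library fit and 19 without the 4 libraries. Between the alternating groups they went from 554 to 274 with no filter, 305 with median ratio scaling, 361 with the highest nuclear genes aside, 280 with quantile normalization, 313 with the length trend removed and 97 in the 16-library fit. In high-fat/chow against chow they went from 126 to 3 (no filter), 190 (median ratio) and 314 (length), and in high-fat/ketogenic against chow from 555 to 351 with no filter, 862 (quantile), 1042 (length) and 189 without the 4 libraries. For single genes, 1079 alternative values kept direction and call status, 108 lost the call, 32 gained it and 4 changed sign. The 1079 include genes that were uncalled and stayed so, and only genes called in the main fit could lose a call. These counts therefore do not give the share of calls that were kept. TPM hides depth, so values near 1 TPM carry unknown counting error.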
